A study of Mus musculus with 24 samples.

Results

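The mitochondrially encoded genes are those of mitochondrial DNA, and they were taken here as every gene whose symbol starts with mt-. The rule gave 37 genes of the 55401 in the deposited tables: 13 protein-coding genes, 2 ribosomal RNA (rRNA) genes and 22 transfer RNA (tRNA) genes. They were followed through 24 bulk RNA-sequencing libraries of male C57BL/6 mice 11 weeks old, in 6 groups of 4. Mice received propyzamide, a herbicide that acts on plant microtubules, or an empty vehicle. Each treatment had 1 unstimulated group and groups taken 3 h and 24 h after anti-CD3, an antibody against the signalling part of the T cell receptor. The series title names mouse T cells and a model of inflammatory bowel disease. The sources used here give no tissue, cell sort, dose or route. The labels do not say whether replicates came from separate animals, so p-values measure only the spread between these libraries. Nor do they number the replicates. The replicate numbers used here follow only the order of the samples and do not match libraries across groups.

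Mitochondrial DNA is a small circle that is read from both strands into long precursors, and most of its genes lie on 1 strand. tRNA genes sit between the others, and their excision releases the rRNAs and mRNAs. The proteins are core subunits of respiratory complexes I, III and IV and of ATP synthase, which are completed by subunits encoded in the nucleus. T cells are known to enlarge their mitochondrial mass and respiration over the first day after receptor stimulation. Of the 13 protein-coding genes, 12 lie on the plus strand of chromosome M of GRCm38, and mt-Nd6 lies on the minus strand. Of the tRNA genes, 14 lie on the plus and 8 on the minus strand, with lengths of 59 to 75 bases.

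The mitochondrial genes are crowded, and some share bases. mt-Atp8 and mt-Atp6, the 2 ATP synthase genes, overlap by 43 bases. They are read from 1 mRNA, and the start of mt-Atp6 lies inside mt-Atp8. The stretch below (chrM:7907-7989, plus strand, GRCm38) shows why counts near this junction cannot be given to either gene from sequence alone; capitals mark the bases in both genes.
mt-Atp8 and mt-Atp6 junction: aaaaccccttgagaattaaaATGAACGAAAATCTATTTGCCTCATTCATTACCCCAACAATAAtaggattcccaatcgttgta

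The other overlaps were shorter. mt-Nd4l and mt-Nd4, neighbours on 1 mRNA, share 7 bases. mt-Nd6 overlaps the end of mt-Nd5 on the opposite strand by 14 bases, and the tRNA gene mt-Ts1 overlaps the end of mt-Co1 on the opposite strand by 3 bases. The SMART-seq2 protocol does not mark the strand, so reads from mt-Ts1 or mt-Nd6 and reads from the opposite strand cannot be told apart. mt-Ts1 is shown (chrM:6870-6938, minus strand, GRCm38) because it was the only tRNA gene with enough counts to test; capitals mark the bases opposite the end of mt-Co1.
mt-Ts1: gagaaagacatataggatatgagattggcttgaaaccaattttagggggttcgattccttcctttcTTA

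Chromosome 1 of GRCm38 carries 7 gene models, all annotated as pseudogenes, that copy a block of mitochondrial DNA from mt-Co1 to mt-Nd4. Over their full length, Gm10222 (copy of mt-Nd4l), Gm10925 (mt-Atp6), Gm28661 (mt-Co2), Gm28437 (mt-Co3) and Gm28439 (mt-Nd4) had 0 differences from the mitochondrial gene. mt-Nd4l is shown whole (chrM:9877-10173, plus strand, GRCm38) because its copy lacks only the last 3 bases, in capitals, so nearly any read of it fits both places equally.
mt-Nd4l: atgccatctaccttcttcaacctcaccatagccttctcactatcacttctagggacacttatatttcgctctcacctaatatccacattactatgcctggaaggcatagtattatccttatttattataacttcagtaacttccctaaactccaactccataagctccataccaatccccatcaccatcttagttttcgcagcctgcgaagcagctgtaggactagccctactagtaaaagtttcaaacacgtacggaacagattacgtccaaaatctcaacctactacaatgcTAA

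Gm29216, by contrast, differs from the end of mt-Co1 at 6 positions, all in its first bases. Counted from the first base of mt-Co1, they are T1056A, C1057T, A1059G, A1060G, C1062A and A1066T. The aligned starts are shown (chrM:6381-6420, plus strand; chr1:24616158-24616197, minus strand; GRCm38), with capitals at those positions.
mt-Co1: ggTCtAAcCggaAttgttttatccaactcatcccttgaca
Gm29216: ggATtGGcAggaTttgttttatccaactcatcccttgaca

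Gm28438 differs from mt-Nd3 at 1 position, T3C, counted from the first base of mt-Nd3. The starts of both are shown (chrM:9459-9498, plus strand; chr1:24613080-24613119, minus strand; GRCm38), with the differing base in capitals.
mt-Nd3: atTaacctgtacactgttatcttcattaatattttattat
Gm28438: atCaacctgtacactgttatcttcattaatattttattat

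The split of counts between a mitochondrial gene and its copy varied widely among libraries for mt-Nd4l, mt-Co2, mt-Co3 and mt-Atp6, whose copies are identical. Gm10222 held a median of 4.82% of the mt-Nd4l pair, but 100% in 5 libraries, in which mt-Nd4l was listed at 0. In propyzamide 3 h replicate 3, mt-Co2 had 0.87 counts and its identical copy Gm28661 had 112.82, or 99.2% of the pair. The share of Gm28437 in the mt-Co3 pair ran from 0.08% to 81.4% and exceeded that of mt-Co3 in 4 libraries. That of Gm10925 in the mt-Atp6 pair ran from 0.46% to 48.7%. The mt-Co1 pair was steadier, with Gm29216 at 10.3% to 20.1%. Gm28438 and Gm28439 took at most 0.13 counts in all, although Gm28439 has 0 differences from the part of mt-Nd4 that it copies. What set the split in each pair was not tested. Together the 7 copies held 42881 counts, 1.73% to 13.2% of the sum with the mitochondrial genes in a library.

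**Figure D1:**
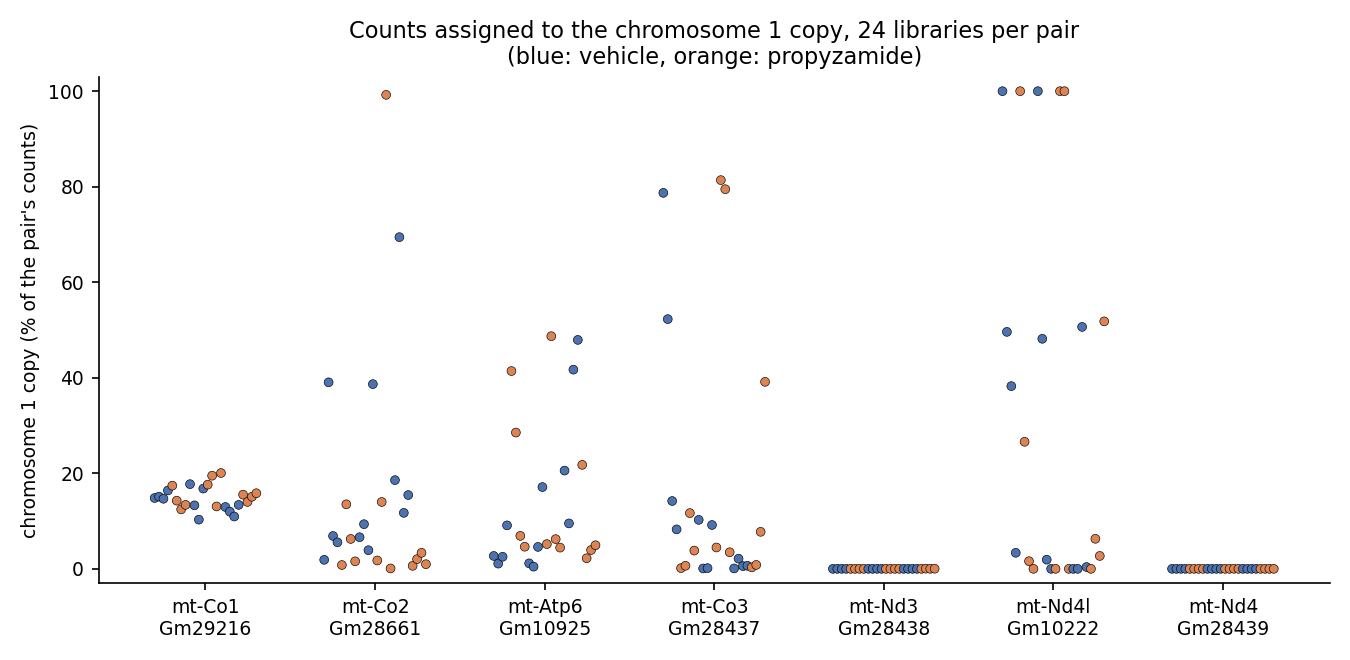
Percent of each pair's counts that was assigned to the chromosome 1 copy, with 1 point per library (24 per pair; blue, vehicle; orange, propyzamide). The mt-Co1 pair stayed between 10.3% and 20.1%, while the mt-Nd4l pair had 5 libraries at 100%.

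Depth was low and uneven. Total counts per library were 438750 to 2072000 in 23 libraries and 9812500 in propyzamide 24 h replicate 3, here the deepest library. A set of 12 gene models, Gm10800 and others that share sequence with it, took 72.2% to 86.8% of the counts in those 23 libraries and 40.2% in the deepest. Mitochondrial genes had 1157000 counts in all, of which 541160 were in the deepest library and 2291 to 86510 in each other one. The defining T cell marker Cd3e had 365 counts over all libraries and 52 without the deepest. The 11 markers of Paneth cells, the antimicrobial secretory cells of the small intestine, had 66229 counts. The 15 T cell markers had 5216.

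Among the members, the large rRNA mt-Rnr2 dominated, with 542840 counts or 46.9% of all mitochondrial counts. The 13 mRNAs together made 49.2% to 61.6% of the mitochondrial counts of a library and the 2 rRNAs 38.2% to 50.6%. The complex I gene mt-Nd1 had 135130 counts, the complex IV core gene mt-Co1 128750 and the ATP synthase gene mt-Atp6 97526. Without the deepest library mt-Atp6, with 64524, came before mt-Co1, with 58777. The complex III gene mt-Cytb had 54600, the complex IV genes mt-Co2 and mt-Co3 54260 and 34543, and the complex I genes mt-Nd5 and mt-Nd4 42091 and 28045. Lower were the complex I genes mt-Nd2 (10151 counts), mt-Nd3 (8957) and mt-Nd4l (5264), and the ATP synthase gene mt-Atp8 (5648). The small rRNA mt-Rnr1 had 5514 counts and the complex I gene mt-Nd6 1388. How evenly the library protocol captures rRNA, tRNA and single mRNAs was not measured. Orders and ratios of counts, here and below, may therefore differ from those of the RNA itself.

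Per length, as the mean over 24 libraries of the deposited TPM, a transcript abundance corrected for length and depth, mt-Rnr2 was first at 3636, followed by mt-Atp6 at 2254, mt-Nd1 at 1840, mt-Co2 at 1039 and mt-Co1 at 835. mt-Atp8 was at 754, mt-Cytb at 599, mt-Co3 and mt-Nd3 both at 593, mt-Nd4l at 314, mt-Nd5 at 261 and mt-Nd4 at 259. mt-Nd2 at 137, mt-Rnr1 at 64.2 and mt-Nd6 at 51.0 closed the order. With the TPM of the copies added, mt-Co1, at 1483, came before mt-Co2, at 1173, and mt-Co3, at 711, before mt-Cytb and mt-Nd3. The 2 rRNA genes lie next to each other with a tRNA gene between, and mt-Rnr2 had 36.8 to 157 counts per count of mt-Rnr1 in the 24 libraries. Short transcripts have a small effective length, which raises their TPM, so mt-Ts1 at 481 cannot be ranked with the mRNAs. The places of the shortest mRNAs, mt-Atp8, mt-Nd4l and mt-Nd3, may be too high for the same reason. The TPM order therefore does not show that mt-Atp8 was more abundant than mt-Cytb, or mt-Nd4l more abundant than mt-Nd5.

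The 22 tRNA genes held 2335 counts, of which 1445 were in mt-Ts1. Next was the leucine tRNA gene mt-Tl1 with 113 counts and 4 libraries at 0. The remaining 20 had 5 to 94 counts each over 24 libraries. All 13 mRNAs, both rRNAs and mt-Ts1 passed the filter on low counts, 16 members in all, and the other 21 tRNA genes did not. Members that failed the filter are given by counts only, and statements on tested members do not cover them.

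At 3 h after anti-CD3 the mitochondrial share was lower than without stimulation in both treatments. Mitochondrial genes made 2.01%, 3.42%, 4.05% and 3.27% of all counts in the 4 unstimulated vehicle libraries and 1.39%, 1.07%, 0.685% and 1.39% at 3 h. With propyzamide they made 2.56%, 2.06%, 5.49% and 2.47% without stimulation and 1.63%, 1.28%, 0.522% and 1.16% at 3 h. All 8 libraries at 3 h lay below all 8 unstimulated ones, with means of 1.14% ± 0.374 and 3.17% ± 1.18 (SD, n = 8). At 24 h the shares were 1.98%, 1.50%, 1.60% and 0.938% with vehicle and 1.86%, 1.62%, 5.52% and 2.56% with propyzamide, where the highest was the deepest library. These 24 h values overlapped both other stages. In bulk RNA, fewer cells of a type and less RNA per cell cannot be told apart.

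The share of all counts depends on the Gm10800-like models, so the counts were also set against those of named nuclear protein-coding genes. On that scale there were 47.6 ± 10.7 mitochondrial counts per 100 in unstimulated vehicle libraries and 44.1 ± 9.63 with propyzamide (SD, n = 4). At 3 h there were 22.6 ± 6.28 and 20.2 ± 6.28, and at 24 h 28.8 ± 8.30 and 26.0 ± 8.55. The 8 libraries at 3 h, from 12.8 to 30.2, again lay below the 8 unstimulated ones, from 34.1 to 63.2. At 24 h the deepest library, at 18.4, was the lowest of the 8 and vehicle replicate 1, at 40.6, the highest. No test was made on these sums.

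**Figure D2:**
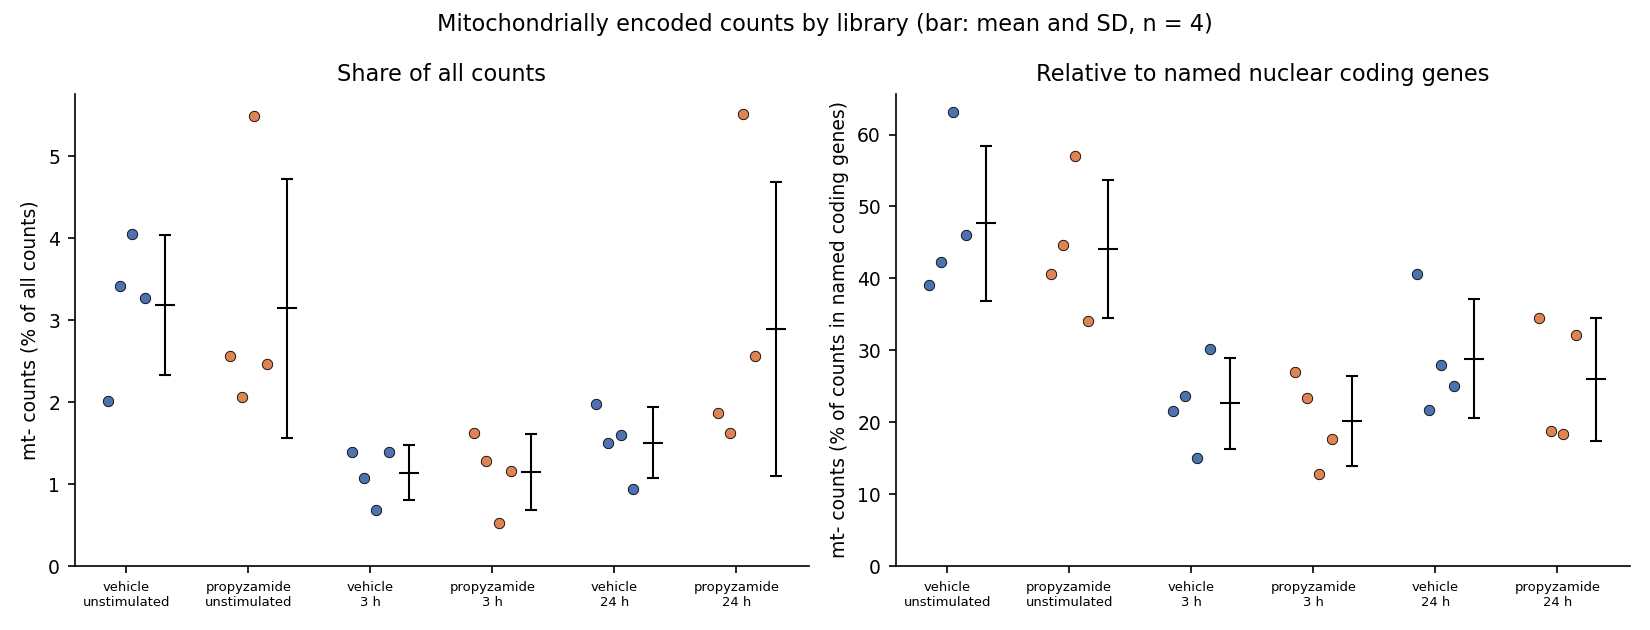
Mitochondrial counts of each library as percent of all counts (left) and per 100 counts in named nuclear protein-coding genes (right), with the mean and SD of each group of 4 beside its points. On both scales every 3 h library lies below every unstimulated one; the 24 h library at 5.52% on the left is the deepest and is at 18.4 on the right.

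Markers of other cell types moved over the same stages. Paneth cell markers, 11 of 11 with counts and none at 0, summed to 25500 to 69612 CPM (counts scaled to a fixed total, here of named coding genes) without stimulation, to 8169 to 25228 at 3 h and to 5304 to 30548 at 24 h. At 3 h, 10 of the 11 were called lower in the test described next, and their median log2 fold change was -1.81. Intestinal epithelium markers, 16 of 16 with counts, summed to 3992 to 12516, 1114 to 6247 and 390 to 8497 at the same stages. Plasma cell markers, 9 of 9 with counts, summed to 8780 to 16450, 557 to 13201 and 3138 to 10533. T cell markers, 15 of 15 with counts, summed to 375 to 717, 183 to 815 and 754 to 1820. Their part in the mitochondrial result was not tested.

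Gene by gene, 9 of the 16 tested members fell at 3 h with both treatments in 1 comparison, at 0.05 or less in edgeR's quasi-likelihood p adjusted by Benjamini-Hochberg over 3799 genes. In this comparison 1.84% of all tested genes were called lower. The 9 were mt-Rnr2, mt-Nd1, mt-Nd2, mt-Nd4, mt-Nd5, mt-Cytb, mt-Co1, mt-Atp6 and mt-Atp8, so that the large rRNA and genes of all 4 complexes were among them. All 16 fold changes were below 0, with a median of -1.23 on the log2 scale against -0.05 for all genes, and 53.5% of all genes were below 0. In 8 members every 3 h library was below every unstimulated one, which held for 0.79% of all genes. No member was called higher, against 0.447% of all genes. With a term for the i5 index, which differs between the 3 h groups, mt-Co1 was the only one of the 9 still called.

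Levels of members are CPM over all tested genes with library sizes adjusted by the trimmed mean of M values (TMM), and fold changes are log2 with their standard error (SE). mt-Rnr2, the RNA of the large mitochondrial ribosome subunit, had a lowest, median and highest level of 10319, 12996 and 22740 CPM in the 8 unstimulated libraries and of 2208, 5657 and 8453 CPM in the 8 at 3 h. The groups did not overlap, and the change was -1.40 ± 0.25 (SE; edgeR adjusted p = 0.00082). mt-Rnr1, the RNA of the small subunit, had 72.1, 96.6 and 182 CPM and then 49.4, 69.3 and 95.9 CPM, overlapping, with a value of -0.66 ± 0.23 that was not called (edgeR adjusted p = 0.14).

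Of complex I, which takes electrons from NADH, mt-Nd5 had 958, 1133 and 1557 CPM (lowest, median and highest) without stimulation and 193, 504 and 662 CPM at 3 h, with no overlap. Its change was -1.38 ± 0.22 (edgeR adjusted p = 0.00045), and that of mt-Nd4 was -1.36 ± 0.22 with the smallest adjusted p of the members (0.00042). mt-Nd1 changed by -1.35 ± 0.26 (edgeR adjusted p = 0.0025) and mt-Nd2 by -0.92 ± 0.24 (edgeR adjusted p = 0.027). mt-Nd3 at -0.81 ± 0.25 and mt-Nd4l at -1.06 ± 0.70 were not called, with edgeR adjusted p of 0.077 and 0.49. The SE of mt-Nd4l was the largest of the 16, in a gene listed at 0 in 5 libraries.

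mt-Nd6, the complex I gene on the minus strand, had 23.4, 38.0 and 56.9 CPM without stimulation and 23.7, 30.1 and 36.5 CPM at 3 h, with every 3 h value inside the unstimulated range. Its value of -0.31 ± 0.25 was the nearest to 0 of the 16 and was not called (edgeR adjusted p = 0.58). It rested on 13 to 102 counts per library outside the deepest. Whether mt-Nd6 changed less than its neighbours was not tested in the fit.

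For complex III, which passes electrons to cytochrome c, the single gene mt-Cytb had 1199, 1652 and 2143 CPM without stimulation and 235, 645 and 1088 CPM at 3 h. The ranges were apart, and the change was -1.43 ± 0.24 (edgeR adjusted p = 0.00058), the largest of the 16. Of complex IV, which reduces oxygen, mt-Co1 had 2158, 2910 and 3999 CPM and then 539, 1184 and 1749 CPM, again apart. It changed by -1.32 ± 0.23 (edgeR adjusted p = 0.00079). mt-Co2 had -1.41 ± 0.42 and mt-Co3 -1.04 ± 0.37, with edgeR adjusted p of 0.074 and 0.14, so neither was called.

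Of ATP synthase, mt-Atp6 had 1665, 3239 and 5554 CPM without stimulation and 523, 1448 and 2033 CPM at 3 h. The ranges overlapped through propyzamide unstimulated replicate 1, the library at 1665 CPM. Its change was -1.32 ± 0.27 (edgeR adjusted p = 0.0042), and that of mt-Atp8 was -1.14 ± 0.26 (edgeR adjusted p = 0.011) with no overlap. The serine tRNA gene mt-Ts1 had -1.11 ± 0.32 and was not called (edgeR adjusted p = 0.062).

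**Figure D3:**
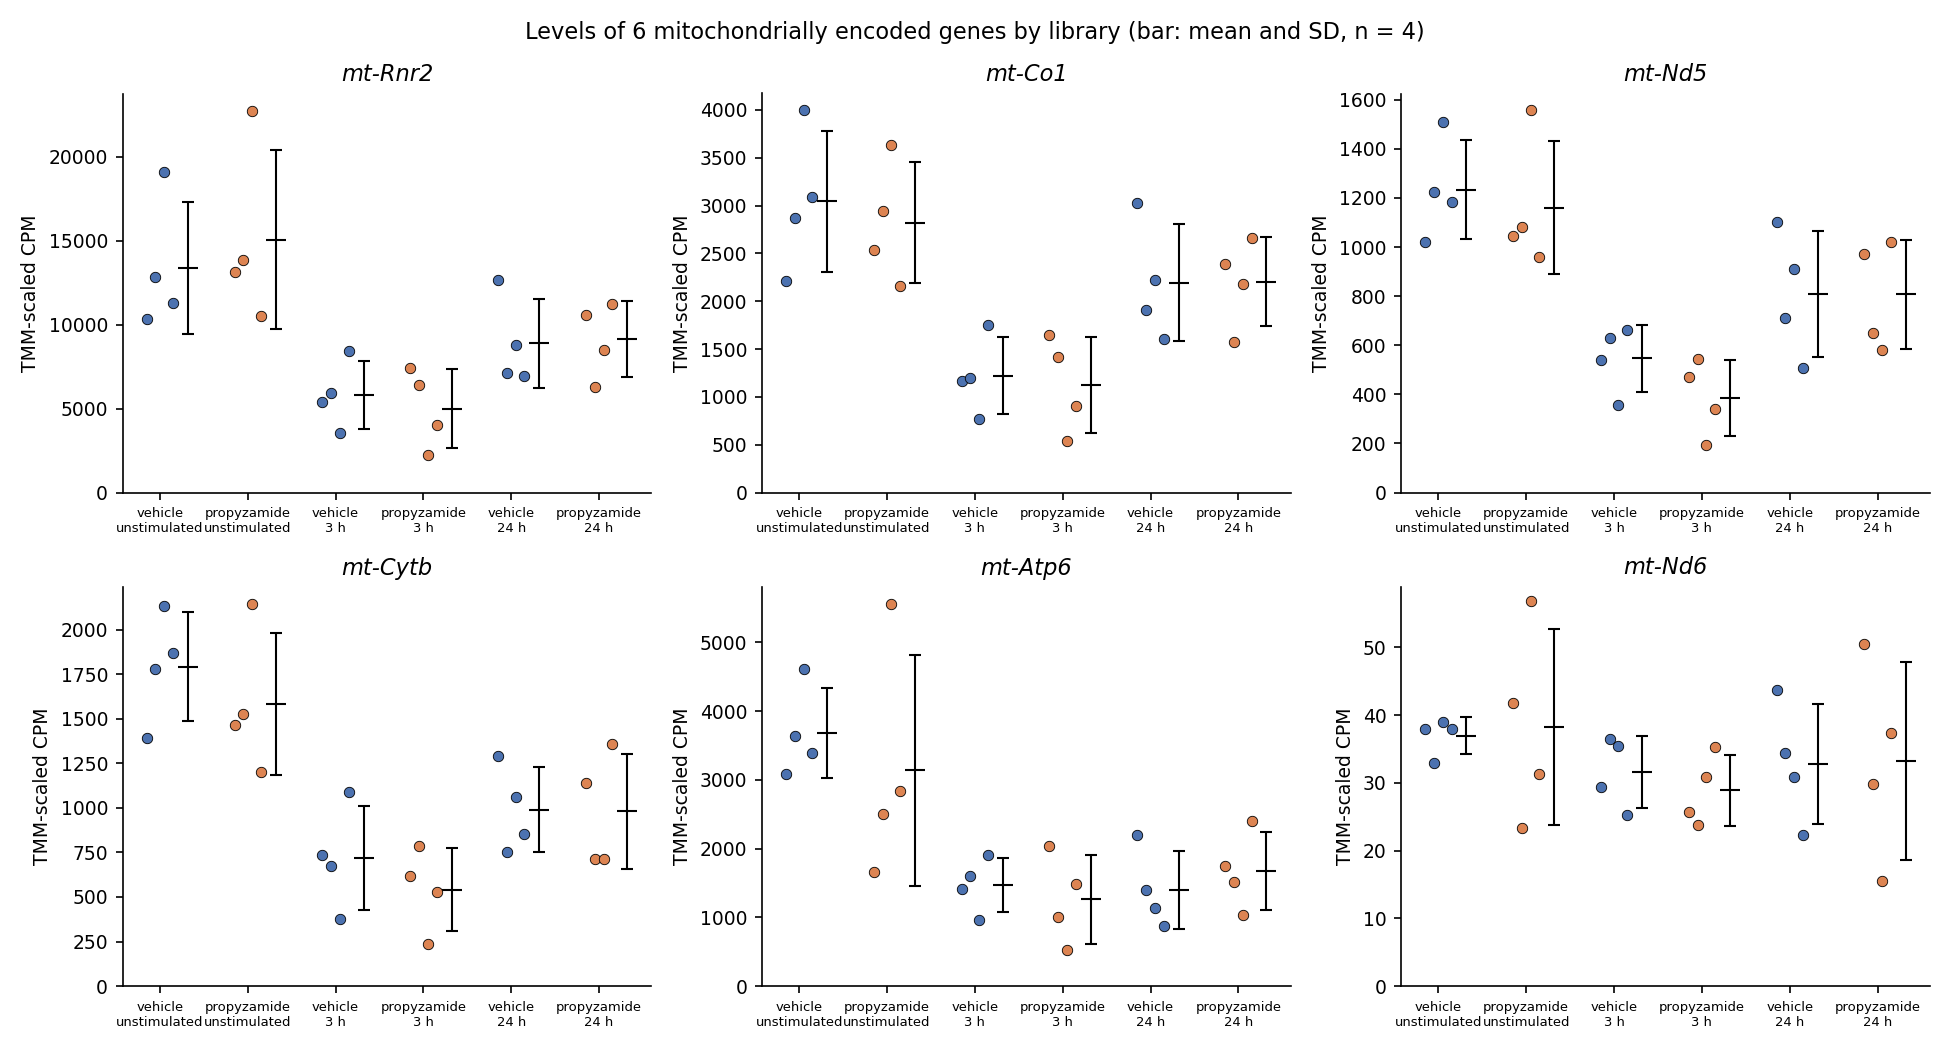
TMM-scaled CPM of 6 members in each library, with the mean and SD of each group of 4 beside its points (blue, vehicle; orange, propyzamide). mt-Rnr2, mt-Co1, mt-Nd5 and mt-Cytb at 3 h lie below every unstimulated library, whereas the 3 h values of mt-Nd6, 23.7 to 36.5 CPM, lie within its unstimulated range.

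Adding the counts of each chromosome 1 copy to its mitochondrial gene gave smaller errors for mt-Co2, mt-Co3 and mt-Nd4l. The SE was 0.24 in place of 0.42 for mt-Co2, 0.23 in place of 0.37 for mt-Co3 and 0.20 in place of 0.70 for mt-Nd4l. With copies added, these 3 genes were also called lower at 3 h, at -1.29, -1.02 and -0.99 (edgeR adjusted p of 0.0015, 0.011 and 0.0037). The count of members called lower then was 12 of 16, where 1.95% of all genes were, and all 9 of the first set remained. mt-Nd3, mt-Nd6, mt-Rnr1 and mt-Ts1 were the 4 not called.

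Within 1 treatment the same comparison rested on 4 libraries a group. With vehicle, 0 of 16 members were called at 3 h, where 0.105% of all genes were called lower, although 12 had an unadjusted p under 0.05 in edgeR, against 6.24% of all genes, and DESeq2 called 7, against 0.467% of its genes. All 16 fold changes were below 0, against 53.1% of all genes, with a median of -1.18 against -0.04 for all genes. The smallest p belonged to mt-Co1 (-1.32 ± 0.32, edgeR adjusted p = 0.080), mt-Cytb (-1.32 ± 0.34, 0.11) and mt-Nd4 (-1.19 ± 0.31, 0.11). In 12 members the 4 libraries at 3 h lay below the 4 unstimulated ones, against 3.79% of all genes.

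With propyzamide, 5 members fell at 3 h where 0.553% of all genes were called lower: mt-Nd5, mt-Nd4, mt-Cytb, mt-Rnr2 and mt-Co1. Their changes were -1.58 ± 0.32, -1.54 ± 0.31, -1.55 ± 0.34, -1.59 ± 0.35 and -1.32 ± 0.32, with edgeR adjusted p of 0.018, 0.018, 0.030, 0.030 and 0.048. The median of the 16 was -1.35 against -0.13 for all genes. The groups did not overlap in 10 members, against 5.11% of all genes. Single libraries moved this count: 0 were called without unstimulated replicate 2 or 3 or without 3 h replicate 3 or 4, 2 without unstimulated replicate 1, and 3 without unstimulated replicate 4 or 3 h replicate 2. Without the deepest library, which is in neither group but in the fit, 9 were called, and 0 were called when the fit was scaled by named coding genes.

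The difference between the treatments in the 3 h change was tested as an interaction, and 0 of 16 members and 0 of 3799 genes were called (0% of genes; edgeR). No member reached an unadjusted p under 0.05, against 3.24% of all genes, and DESeq2 also called 0 members. The median of the 16 interaction terms was -0.25, with the smallest p for mt-Co3 (-0.95 ± 0.73), mt-Rnr1 (-0.56 ± 0.47) and mt-Ts1 (0.67 ± 0.64), all at an edgeR adjusted p of 0.997. With copies added the mt-Co3 term turned to 0.14. Of the groups in this interaction only propyzamide at 3 h carries the second i5 index, so index and treatment cannot be told apart.

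At 24 h after anti-CD3, 1 of 16 members was called lower than without stimulation with both treatments together, where 0.921% of all genes were called lower. This was mt-Atp6, with 872, 1451 and 2406 CPM (lowest, median and highest) at 24 h against 1665, 3239 and 5554 CPM, overlapping ranges, and a change of -1.15 ± 0.27 (edgeR adjusted p = 0.014). Of the 16, 15 were below 0, against 50.6% of all genes, with a median of -0.58 against -0.01. With an index term 0 members were called, mt-Atp6 included; all 24 h libraries carry the second i5 index and all unstimulated ones the first. No member had all 24 h libraries below all unstimulated ones, which 0.132% of all genes had. Without vehicle 24 h replicate 1, propyzamide 24 h replicate 4 or the deepest library, 3 members were called (mt-Atp6, mt-Nd3 and mt-Nd4), and without propyzamide unstimulated replicate 2, mt-Atp6 and mt-Nd3. The next smallest adjusted p were those of mt-Nd3 (-0.86 ± 0.25) and mt-Nd4 (-0.75 ± 0.22), both 0.055 in edgeR. mt-Atp6 was still called with its copy added, at -1.0 ± 0.25 (edgeR adjusted p = 0.022; 1.05% of all genes called lower), and mt-Nd3 then was too, at -0.86 ± 0.24 (edgeR adjusted p = 0.050). mt-Rnr1, mt-Nd6 and mt-Nd4l had the values nearest 0, at -0.20 ± 0.23, -0.21 ± 0.25 and 0.01 ± 0.68. With its copy added mt-Nd4l was at -0.46 ± 0.20 (edgeR adjusted p = 0.21).

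Within each treatment 0 members were called at 24 h (edgeR), where 0.105% of all genes were called lower with vehicle and 0.0263% with propyzamide. Unadjusted p were under 0.05 in 5 and 7 members, against 7.16% and 14.4% of all genes, and DESeq2 called 1 and 0, against 0.539% and 0.244% of its genes. With vehicle the 24 h libraries lay below the unstimulated ones in mt-Atp6, mt-Atp8, mt-Nd3 and mt-Cytb, against 4.29% of all genes, and with propyzamide in mt-Co3 alone, against 2.16%. Medians were -0.68 with vehicle and -0.61 with propyzamide. With vehicle the smallest p were those of mt-Atp6 (-1.40 ± 0.38), mt-Cytb (-0.86 ± 0.34) and mt-Nd4 (-0.76 ± 0.30), at edgeR adjusted p of 0.13, 0.50 and 0.50. With its copy added, mt-Atp6 was at -0.95 ± 0.35 there. With propyzamide they were those of mt-Nd3 (-0.98 ± 0.35), mt-Nd4 (-0.73 ± 0.30) and mt-Atp6 (-0.91 ± 0.38), at edgeR adjusted p of 0.24, 0.28 and 0.28.

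**Figure D4:**
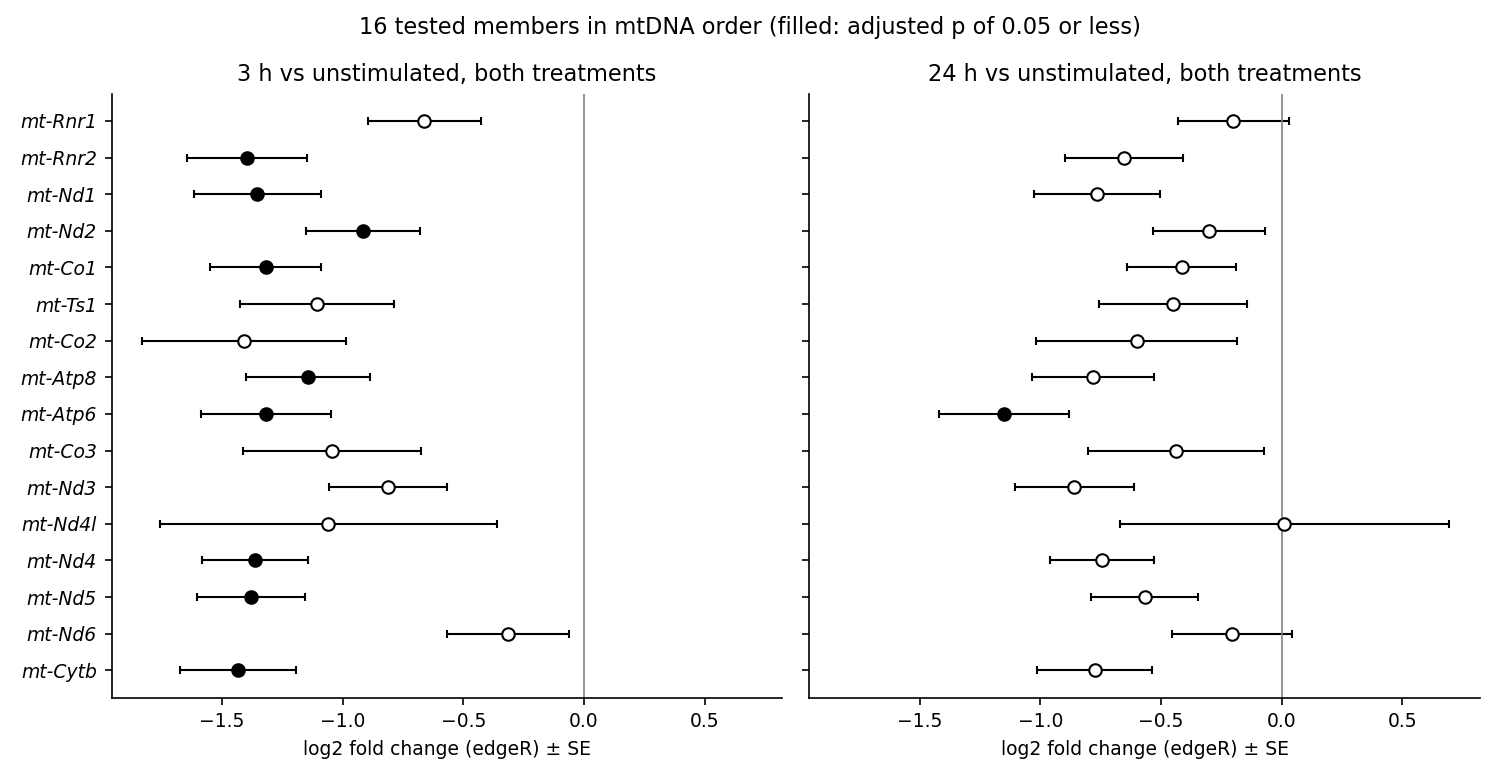
Log2 fold change and SE of the 16 tested members at 3 h (left) and 24 h (right) against unstimulated libraries of both treatments, in the order of the genes along mitochondrial DNA; filled points have an adjusted p of 0.05 or less. At 3 h 9 points are filled and mt-Nd6 is nearest 0; at 24 h only mt-Atp6 is filled.

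From 3 h to 24 h, 2 members rose with propyzamide, where 8.61% of all genes were called higher and 6.63% lower. mt-Nd5 had 469, 546, 193 and 339 CPM at 3 h and 974, 651, 583 and 1020 CPM at 24 h, without overlap, a change of 1.06 ± 0.32 (edgeR adjusted p = 0.030). mt-Co1 had 1648, 1421, 539 and 904 CPM and then 2392, 1571, 2186 and 2666 CPM, overlapping, a change of 0.96 ± 0.32 (edgeR adjusted p = 0.042). The median of the 16 was 0.71 against 0.15 for all genes. mt-Rnr1 was the other member without overlap, against 12.3% of all genes. A count of 2 in 16 is near that background, and both calls were lost in 6 of the 8 fits that left out 1 library of either group, the exceptions being 3 h replicate 2, with mt-Nd5 alone, and the deepest library, with 4 members called.

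With vehicle, 0 members and 0 genes were called between 3 h and 24 h (0% of genes; edgeR), with a median of 0.53 against -0.01. These groups differ in i5 index as well as in time. mt-Co1 alone had an unadjusted p under 0.05, against 12.2% of all genes (0.84 ± 0.32, edgeR adjusted p = 0.26), and DESeq2 called 1 member, against 2.86% of its genes. The values nearest 0 in both treatments were those of mt-Nd3 (0.03 ± 0.35 with vehicle, -0.13 ± 0.35 with propyzamide), mt-Nd6 (0.06 ± 0.36, 0.15 ± 0.36) and mt-Atp6 (-0.07 ± 0.38, 0.40 ± 0.38). With its copy added, mt-Atp6 was at 0.32 ± 0.35 and 0.24 ± 0.35. As a part of the mitochondrial counts mt-Atp6 had 10.6% ± 2.18 without stimulation, 11.0% ± 1.94 at 3 h and 7.67% ± 1.72 at 24 h (SD, n = 8). mt-Co1 had 9.31% ± 0.862, 9.47% ± 0.939 and 11.1% ± 0.959 at the same stages. No test was made on these parts, which leave out the copies. With vehicle, Gm10925 held 1.09% to 9.10% of the mt-Atp6 pair in unstimulated libraries and 9.51% to 47.9% at 24 h. With propyzamide it held 4.63% to 41.4% and then 2.22% to 21.8%.

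Propyzamide against vehicle gave no called member at any stage. Without stimulation, at 3 h and at 24 h edgeR called 0 of 16 members and 0 of 3799 genes (0%), no member reached an unadjusted p under 0.05, against 3.37%, 3% and 10.2% of all genes, and DESeq2 called 0 members. Medians of the 16 were 0.06, -0.22 and -0.01. At 3 h the groups also differ in i5 index, so index and treatment cannot be told apart there. Without stimulation the smallest p were those of mt-Co3 (0.51 ± 0.51), mt-Nd4 (-0.21 ± 0.30) and mt-Atp6 (-0.23 ± 0.38), all at an edgeR adjusted p of 1.0. At 3 h they were those of mt-Nd4 (-0.56 ± 0.31), mt-Nd5 (-0.50 ± 0.31) and mt-Cytb (-0.40 ± 0.34), also at 1.0. At 24 h they were those of mt-Ts1 (0.59 ± 0.44), mt-Co2 (0.46 ± 0.59) and mt-Nd2 (-0.25 ± 0.33), at 0.62, 0.77 and 0.77. SEs of the members named here were 0.30 to 0.59, so differences of that size, and larger ones, could be missed in either direction. With vehicle at 3 h against unstimulated, mt-Co1 at -1.32 ± 0.32 was not called (edgeR adjusted p = 0.080).

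The interaction at 24 h gave 0 called members and 0 called genes (0%; edgeR, with no member at an unadjusted p under 0.05 against 2.34% of all genes, and DESeq2 0 members). Its median was 0.00, and the smallest p were those of mt-Ts1 (0.80 ± 0.61), mt-Co3 (-0.76 ± 0.73) and mt-Atp6 (0.49 ± 0.53), all at an edgeR adjusted p of 1.0.

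The make-up of the mitochondrial counts is given without a test, and uneven capture by the library protocol was not measured. mt-Nd6 made 1.51 to 3.07 per 1000 mitochondrial mRNA counts in the 8 unstimulated libraries, 2.41 to 12.7 at 3 h and 1.86 to 4.04 at 24 h. The 12.7 was in propyzamide 3 h replicate 3, the library with the fewest mitochondrial counts, and rested on 15 counts of mt-Nd6. The tRNA genes made 0.119% to 0.201% of mitochondrial counts without stimulation, 0.172% to 0.567% at 3 h and 0.21% to 0.296% at 24 h, so the 24 h range lay above the unstimulated one. These sums rested on 13 to 149 counts per library outside the deepest. Of all 2335 tRNA counts 1445 were in mt-Ts1, whose reads cannot be told from those of the opposite strand. The ratio of mt-Rnr2 to mt-Rnr1 was 120 to 157 without stimulation, 36.8 to 122 at 3 h and 76.7 to 135 at 24 h. mt-Atp8 made 0.627% ± 0.117, 0.687% ± 0.0945 and 0.578% ± 0.134 of mitochondrial counts at the 3 stages, within the spread (SD, n = 8). The summed rRNA part was 44.7% ± 3.50, 43.6% ± 2.83 and 45.8% ± 2.22 (SD, n = 8). Depth moved with these ratios: the 8 libraries at 3 h had 2291 to 21308 mitochondrial counts and the unstimulated ones 16110 to 86510, and the part of depth was not tested.

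**Figure D5:**
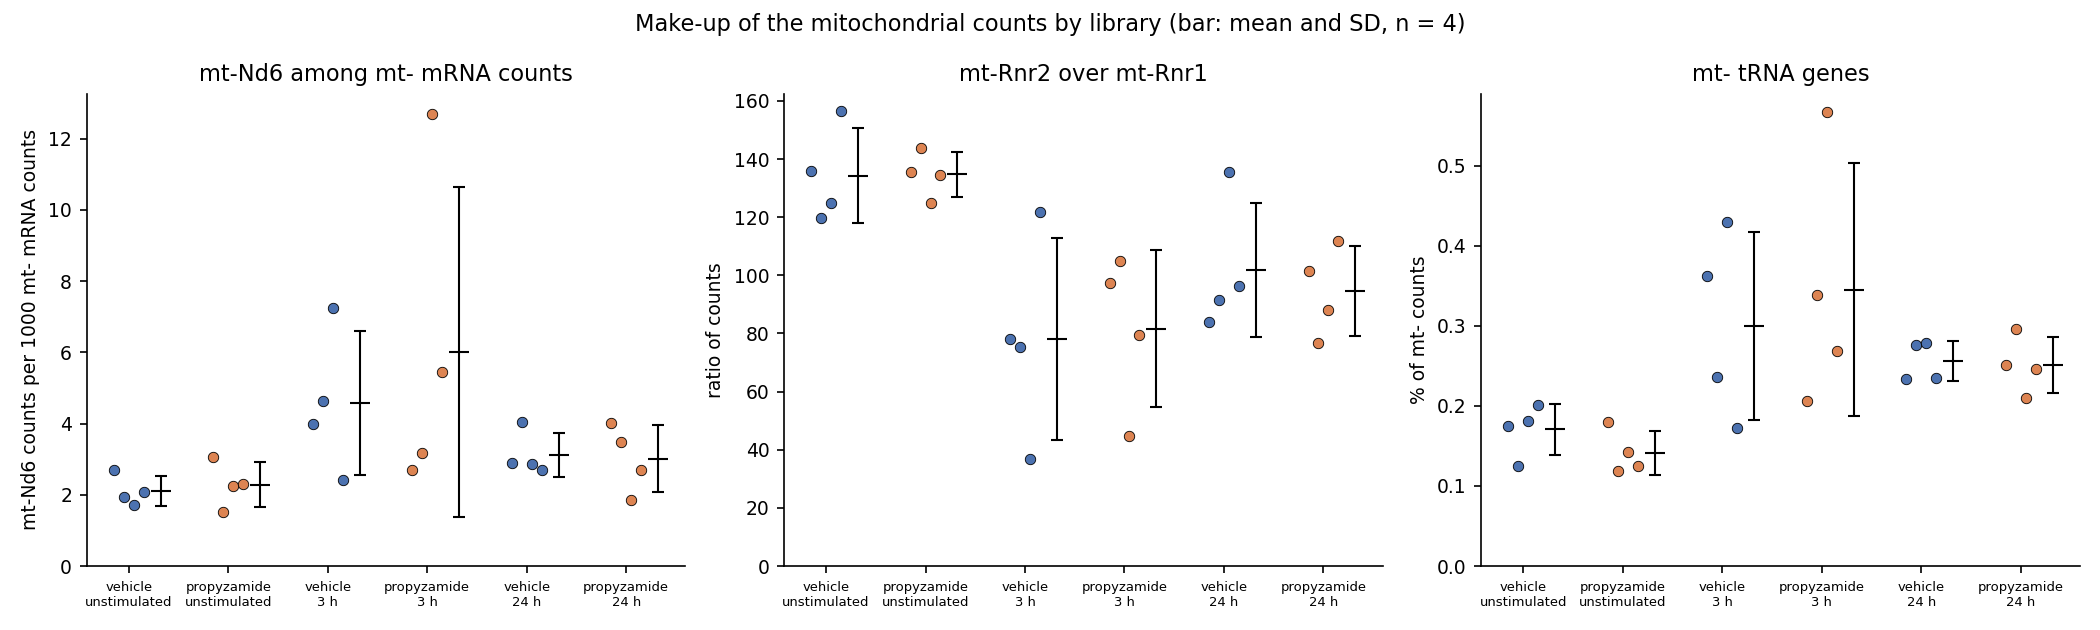
mt-Nd6 counts per 1000 mitochondrial mRNA counts, the ratio of mt-Rnr2 to mt-Rnr1 counts, and the tRNA genes as percent of mitochondrial counts in each library, with the mean and SD of each group of 4. The highest mt-Nd6 value, 12.7, is propyzamide 3 h replicate 3; unstimulated ratios of mt-Rnr2 to mt-Rnr1 lie between 120 and 157.

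The nuclear partners of these genes were read from lists of the respiratory chain and of mitochondrial gene expression. Of 81 gene symbols of nuclear subunits of the respiratory complexes and ATP synthase, 55 were tested at 3 h with both treatments together. 51 of them were below 0, against 53.5% of all genes, with a median of -0.77 against -0.05. Cox7a2l alone, a factor in the assembly of respiratory supercomplexes, was called lower (-1.48 ± 0.38, edgeR adjusted p = 0.026), and 1 of 55 is near the 1.84% of all genes. Ndufa10 of complex I (-1.47 ± 0.45) and Cox6a1 of complex IV (-1.27 ± 0.41) were not called, with edgeR adjusted p of 0.086 and 0.10. The median was -0.40 with vehicle and -1.11 with propyzamide, with 0 called in each (edgeR, with 2 and 21 at an unadjusted p under 0.05, against 6.24% and 13.4% of all genes). At 24 h the median was -0.13 with 0 called.

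From 3 h to 24 h with propyzamide, 7 of the 55 nuclear subunits rose, a count not far from the 8.61% of all genes, with a median of 1.04 against 0.15. Among them were Cox7a2l (2.56 ± 0.54, edgeR adjusted p = 0.0073), the ATP synthase gene Atp5a1 (1.89 ± 0.49, edgeR adjusted p = 0.019) and the complex III gene Uqcrfs1 (1.90 ± 0.60, edgeR adjusted p = 0.036).

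The machinery that serves mitochondrial DNA was barely measured. Of 78 proteins of the mitochondrial ribosome, 11 were tested and 0 called at 3 h, with a median of -0.04. Of 29 genes for mitochondrial RNA synthesis and processing, 4 were tested and 0 called, with a median of 0.10: Tbrg4, Mterf3, Lrpprc, which stabilises mitochondrial mRNA, and Dhx30. Of 13 genes for the upkeep of mitochondrial DNA, 3 were tested and 0 called at 3 h, with a median of -1.75 against -0.05 for all genes. With propyzamide alone their median against unstimulated libraries was -2.66 at 3 h and 0.12 at 24 h. From 3 h to 24 h with propyzamide, where 8.61% of all genes were called higher and 6.63% lower, 2 of these 3 were called higher and 1 of the 11 ribosome genes lower. Tk2, a mitochondrial thymidine kinase (2.91 ± 0.91, edgeR adjusted p = 0.035), and Slc25a4, an ADP/ATP carrier (3.07 ± 1.03, edgeR adjusted p = 0.043), rose, and the ribosome gene Mrpl48 fell (-1.07 ± 0.35, edgeR adjusted p = 0.040). Of 10 regulators of biogenesis only Myc was tested (0.54 ± 0.44 at 3 h, edgeR adjusted p = 0.58). Of 11 genes of mitophagy, the removal of mitochondria, 4 were tested and 0 called at 3 h, with a median of -0.66.

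The library names carry an i5 index with 2 values, which the labels do not call a batch. Both unstimulated groups and vehicle at 3 h share the first index, and the other 3 groups share the second. The 3 h comparison with vehicle therefore lies within 1 index, and there 0 of 16 members were called, with all 16 below 0 (53.1% of all genes) and a median of -1.18. The 3 h comparison with propyzamide crosses the index, as do all 24 h comparisons with unstimulated libraries. The interaction at 3 h, propyzamide against vehicle at 3 h, and vehicle from 3 h to 24 h cross it too. In an additive model of treatment, stage and index, mt-Co1 was the only member called at 3 h, where 0.158% of all genes were called lower, the median of the 16 was -1.17, and 12 had an unadjusted p under 0.05, against 5.98% of all genes. At 24 h that model called 0 members (0% of genes lower) in edgeR, with a median of -0.34 and 0 at an unadjusted p under 0.05. For the index itself 0 members and 0 genes (0%) were called in edgeR, and 0 members had an unadjusted p under 0.05. The median was -0.31 for the second index against the first. Index and stage part only at 3 h, so this term rests on propyzamide against vehicle there. The model takes the effect of treatment as equal at all stages. A separate effect of the index therefore cannot be read from it.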

How the data were processed

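Bulk RNA was sequenced from 24 libraries made by SMART-seq2, per the labels. Per the submitters' processing notes, reads were quantified with kallisto (version not stated) on GRCm38; the annotation release is not given in the sources used here. Per the file headers, the deposited tables hold expected counts, which kallisto estimates for each of 142604 transcripts without scaling to depth. They also give TPM, per the file headers, and effective transcript length in bases, a deposited column of another unit. Transcript values were added up within each of 55401 genes, and gene sums were rounded before testing. Positions and sequences came from a GENCODE annotation of GRCm38, whose lengths matched the files for all 37 members.

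The gene counts went into edgeR 4.0.16 (R 4.3.3) as 1 model with a coefficient for each group, over all 24 libraries, after filterByExpr and TMM, with the quasi-likelihood test. The filter left 3799 genes. Benjamini-Hochberg adjustment ran over all of them in each of 13 comparisons, and a gene was called at an adjusted p of 0.05 or less. Alternatives used RLE scaling, no filter, DESeq2 1.42.0, limma 3.58.1 (voom with quality weights), scaling by or restriction to named protein-coding genes, copies added, only the groups compared, an index term, and leaving out libraries. Fits were tested on simulated data with changes put in at 3 h in both treatments. The fit called 28.9% of changes of size 1 on the log2 scale and 87.7% of those of size 2. Named protein-coding genes leave out numbered or clone models, olfactory and vomeronasal receptors and mt- genes. A copy is a model with at least 50% of its stretches of 31 bases in a mitochondrial gene, and a Gm10800-like model has at least 5% in Gm10800. Members with at least 100 counts are described singly. Of each comparison the called members, or the 3 with the smallest p, carry statistics, and up to 4 of any other list are named. The members and lists were chosen with earlier results of these data known. Marker lists of B cells, macrophages and monocytes, granulocytes, muscle and erythroid cells were also read. At 3 h against unstimulated, with both treatments, the 9 tested B cell markers had a median of -0.70. The 5 tested markers of macrophages and monocytes had -0.95, the 3 of granulocytes 5.94 and the 2 of erythroid cells 0.76. No muscle marker was tested. All 8 granulocyte markers together held 1437 counts over all libraries. They summed to 71.3 to 434 CPM of named coding genes without stimulation and to 55.7 to 1268 at 3 h, overlapping.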

Additional observations from a re-analysis of the deposited data

Results flagged for a closer look

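Of 108 groups of 4 libraries examined (the mitochondrial share and tested members in each group, and other sums), 7 had a library far from the other 3 by Dixon's criterion at the 95% level; chance gives about 1 in 20. Propyzamide unstimulated replicate 3 had the highest mitochondrial share of all counts in its group, 5.49%, and stood high in mt-Co3 (1465 CPM) and mt-Nd3 (505 CPM). Vehicle 24 h replicate 1 stood high in mt-Rnr1 (151 CPM), mt-Nd2 (420 CPM) and mt-Nd4l (175 CPM). Vehicle unstimulated replicate 2 stood low in mt-Nd6, at 32.9 CPM.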

How the results depend on the processing

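With both treatments together at 3 h, 7 to 12 members were called lower under the settings without an index term and 8 to 10 when 1 library was left out, against 9; with the index term 1 was called. At 24 h together the count of 1 became 4 without the filter, 6 with named coding and mt- genes only or with scaling by named coding genes, 2 with copies added, 5 with limma-voom or DESeq2, 3 without the deepest library, 0 with the index term, and 1 to 3 without 1 library. Vehicle at 3 h, with 0, gave 2 with RLE, 8 without the filter, 9 with only the groups compared, 7 with limma-voom or DESeq2 and 4 without the deepest library. Vehicle at 24 h, with 0, gave 2 with only the groups compared, and 1 without the filter, with named coding and mt- genes only, with limma-voom, with DESeq2 and without the deepest library. Vehicle from 3 h to 24 h, with 0, gave 1 with only the groups compared and 1 with DESeq2. Propyzamide at 3 h, with 5, gave 9 with RLE, without the filter and without the deepest library, 11 with DESeq2, 0 with named coding and mt- genes only, with scaling by named coding genes and with only the groups compared, and 0 to 4 without 1 library of its groups. Propyzamide from 3 h to 24 h, with 2, gave 7 with RLE or DESeq2, 4 without the deepest library, 1 with copies added or only the groups compared, 0 without the filter and with either use of named coding genes, and 0 to 4 without 1 library. Leaving out a library repeats the filter, so the tested genes changed too; otherwise the cause was not tested.

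The mean share of all counts was 2.03%, 0.752% and 0.905% on the TPM scale for vehicle unstimulated, 3 h and 24 h. With the 13 mRNAs alone it was 1.82%, 0.641% and 0.815%, and 0.644% for propyzamide 3 h. Without the 2 rRNAs it was 1.83%, 0.644% and 0.819%, and 0.647% for propyzamide 3 h. With vehicle the unstimulated mean was the highest and the 3 h mean the lowest under each; with propyzamide on the TPM scale the 24 h mean was 2.01%, but 1.29% without the deepest library, and the unstimulated one 1.96%. With copies added, 13 of 208 member contrasts changed sign, in mt-Co1, mt-Co2, mt-Co3, mt-Atp6 and mt-Nd4l, and 0 of the 13 were called either way. Signs turned in 4 contrasts, none called, among the called members or, where none was called, the 3 with the smallest p. With copies added, mt-Co3 with propyzamide against vehicle unstimulated turned to -0.020. Its interaction at 3 h turned to 0.14 and the mt-Atp6 interaction at 24 h to -0.10. mt-Nd2 with propyzamide against vehicle at 24 h turned to 0.016 without the deepest library. It ran from -0.50 to 0.047 over the fits that left out 1 library (0.047 without vehicle 24 h replicate 1). Other values given above also turned with copies added. They were mt-Nd4l at 24 h with both treatments and mt-Atp6 from 3 h to 24 h with vehicle. No paired analysis was possible because the labels give no replicate numbers. Low depth outside the deepest library limits mt-Nd6 and the tRNA genes most.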
